A study of Rattus norvegicus with 30 samples.

Results

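Of the 22521 probes on the array, 97 (0.431%) were raised within the first day of mutant huntingtin expression in both Q74 lines. They are the probes whose value at day 1 exceeded that at day 0 by at least 0.2 in Q74 line 4 and also in Q74 line 6. The values are normalized log signals, read as natural logs, so that a difference of 0.2 is 1.22-fold. The normalization compresses low signals, so folds understate the change of dim probes. The same rule turned downward took 27 probes. In the Q23 lines it took 0 probes upward and 1 downward.

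Huntington's disease is caused by an expanded glutamine stretch in the huntingtin protein, and fragments of the expanded protein cluster into aggregates in neurons. PC12 cells, a rat phaeochromocytoma line that makes dopamine, can be given a switchable gene for such a fragment, so that the response can be followed from the moment expression starts. Early after the switch the fragment is largely diffuse in the cell, and aggregates accumulate on later days.

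Q74 lines 4 and 6 carry an exon 1 huntingtin fragment with 74 glutamines fused to the Green Fluorescent Protein, and Q23 lines 1 and 5 carry the same fusion with 23 glutamines. Both constructs are switched on by 1 μg/ml doxycycline. RNA was taken before induction (day 0) and after 1 and 5 days, in 2 separate RNA isolations per line and day, which gives 24 arrays. A further 6 arrays hold PC12 cells that carry no construct, 2 for each day, treated here as RNA isolations of 1 culture, although their sample codes would also allow separate cultures. With 2 lines a construct the number of lines limits the precision, and a property of a line cannot be told apart from a property of its construct. In RNA of whole cultures, a higher level in every cell and a larger share of cells with a high level cannot be told apart either. Isolations from the same line and day correlated between r = 0.992 and r = 0.997 over all probes, and the lowest value was that of Q74 line 4 at day 0. Array medians lay between 4.74 and 4.85, and the means of the PC12 arrays (at most 5.53) lay below those of the other arrays (at least 5.57), so levels in PC12 cells are not set against the other lines by a test. The tables used here pair no probe with a gene, so members are described by their values, and 4 are given by probe identifier.

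The members were chosen by their rise at day 1 in the Q74 lines, and what follows for that rise is a description. In Q74 line 4 the day 1 rise ran from 0.20 to 0.62 with a median of 0.34, a 1.40-fold change. In Q74 line 6 it ran from 0.21 to 0.52 with a median of 0.33, a 1.39-fold change. The median of all probes moved by 0.0042 in Q74 line 4 and by -0.0066 in Q74 line 6. The members were of medium to high signal. Their mean level over all arrays ran from 4.79 to 7.53 with a median of 5.86, against a median of 4.79 for all probes, and they lay between the 49.9th and the 86.7th percentile of level. All but 1 of the members lay in the brighter part of the array, above the median level. Across the 97 members, which are not independent replicates and share the same day 0 arrays within a line, the rise in Q74 line 4 went with that in Q74 line 6 with Pearson's r of 0.54 and Spearman's rho of 0.45.

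**Figure D1:**
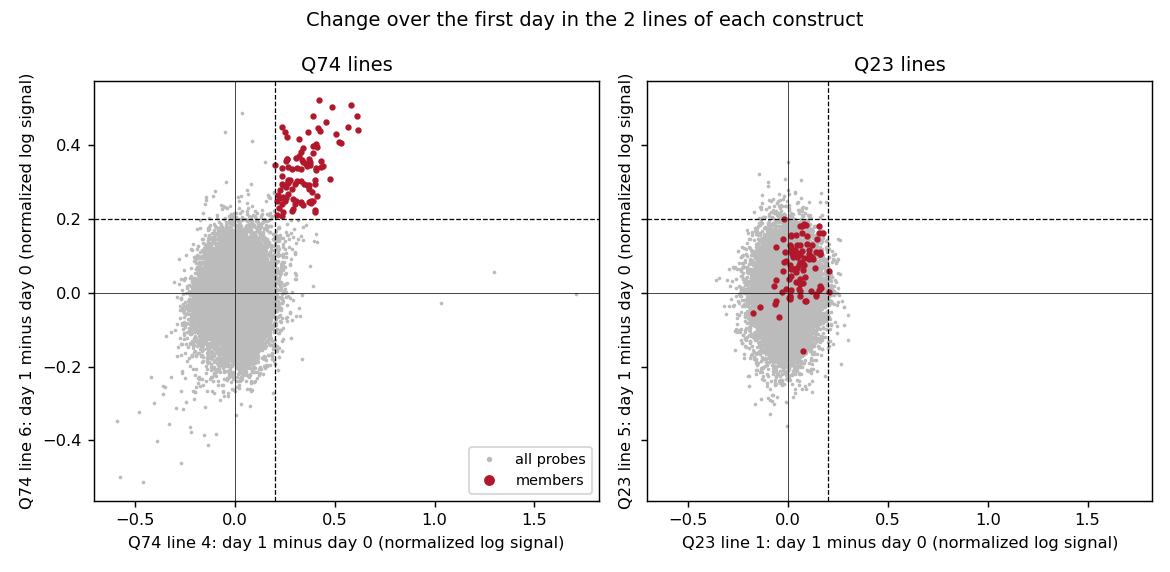
Day 1 minus day 0 (normalized log signal) of all 22521 probes, for Q74 line 4 (x axis) against Q74 line 6 (y axis) on the left and Q23 line 1 against Q23 line 5 on the right, with the 97 members in red and the limit of 0.2 dashed. The members fill the upper right corner in the Q74 lines by the rule, and in the Q23 lines they lie inside the cloud of all probes but mostly above 0 in both.

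The limit of 0.2 fell in a continuous range of values. The smaller of the rises in the Q74 lines was 0.203, 0.208, 0.208, 0.209 and 0.215 for the 5 members nearest to it, and 0.198, 0.197, 0.196, 0.194 and 0.194 for the 5 probes just outside. Many more probes passed in a single line, 316 in Q74 line 4 and 172 in Q74 line 6. A pair of members had the same value on every array, so the 97 members hold 96 distinct profiles. Over the whole table, 577 probes share all 30 values with another probe.

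Before induction the members stood at about the same level in both constructs. The median member was at 5.77 in Q74 line 4, 5.72 in Q74 line 6, 5.73 in Q23 line 1, 5.75 in Q23 line 5 and 5.92 in PC12 cells. The difference Q74 minus Q23 at day 0 ran from -0.18 to 0.12 over the members, with 44 higher and 53 lower in the Q74 lines. The range over the 4 lines at day 0 had a median of 0.12 for the members and 0.15 for all probes. The rule used the day 0 arrays of the Q74 lines, and these values are given without a test.

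At day 1 the member median stood between 6.03 and 6.17 on the 4 Q74 arrays, against 5.78 to 5.89 on the 4 Q23 arrays of that day. The 4 Q74 arrays at day 0 lay between 5.715 and 5.77. Every Q74 array at day 1 thus lay above every other array of the study in the member median, since the highest of the others was 5.99, at day 5 in the second RNA isolation of Q74 line 4. The members were chosen by their rise on the Q74 arrays of day 1, so this order is largely set by the choice. Limma with the line as a block gave 84 of the 97 members an adjusted p under 0.05 for the rise in Q74, where 0.382% of all probes were called up (86 probes). As the rule used this contrast, the count describes the choice. It was 5 with the first RNA isolation alone and 42 with the second alone, and the share of all probes called in these settings is not given.

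**Figure D2:**
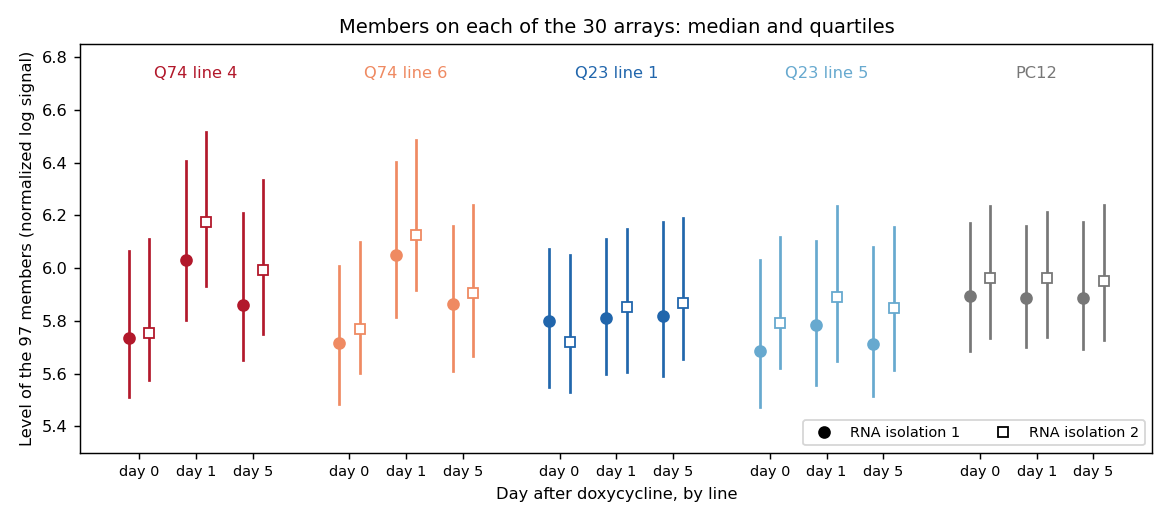
Median (marker) and lower to upper quartile (bar) of the level of the 97 members (normalized log signal) on each of the 30 arrays, by line and day, with filled circles for RNA isolation 1 and open squares for RNA isolation 2. The 4 Q74 arrays at day 1 sit between 6.03 and 6.17, the Q74 arrays at day 5 between 5.86 and 5.99, and the Q23 arrays of all days between 5.69 and 5.89.

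By day 5, when the study describes aggregates in nearly all expressing cells, much of the rise had gone. In the Q74 lines 94 of the 97 members were lower at day 5 than at day 1 in both lines, and 0 were higher in both. The median change from day 0 was 0.18 (1.19-fold) in Q74 line 4 and 0.12 (1.13-fold) in Q74 line 6. The median member had kept 50.3% of its day 1 rise in Q74 line 4, with quartiles of 36.7% and 59.7%. It had kept 36.6% in Q74 line 6, with quartiles of 24.0% and 45.8%. By these values part of the rise was left, and 90 of the 97 members were still above their day 0 level in both Q74 lines. The counts of 94 and 90 share the day 1 or day 0 arrays of the Q74 lines with the rule. They are descriptions, and no share over all probes is set beside them.

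The choice favours arrays that read high at day 1 and low at day 0, so the decline was also read in RNA that had no part in the choice. Probes chosen by the first RNA isolation alone, 105 in number, had median rises in the second isolation of 0.34 at day 1 and 0.17 at day 5 in Q74 line 4, and of 0.25 and 0.08 in Q74 line 6. Probes chosen by the second isolation alone, 118 in number, had median rises in the first isolation of 0.24 and 0.11 in Q74 line 4, and of 0.29 and 0.12 in Q74 line 6. In each of these 4 readings the median at day 5 was between 30.6% and 50.0% of the median at day 1. The RNA isolations of a line are technical repeats, and the cultures behind them may be shared.

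For the fit of the change from day 1 to day 5 in Q74, limma with the line as a block gave 59 members an adjusted p under 0.05, all 59 down, where 3.63% of all probes were called down. From day 0 to day 5, 28 members were called up and 1 down in Q74, where 6.13% of all probes were called up. Both contrasts share arrays with the rule, and the counts are descriptions. The count of 28 was 7 with the first RNA isolation alone, 10 with the second alone, 17 after quantile normalization and 48 after centring on array medians. The share of all probes called in these settings is not given, so a change in the members cannot be told apart from a change over all probes.

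A small group stayed up. In 8 members (8.25%) the level at day 5 was at least 0.2 above day 0 in both Q74 lines, where 2.27% of all probes (511) met this limit. The rule used the same day 0 arrays and favours low values there, so these shares are a description without a test. The count was 17 with the first RNA isolation alone and 45 at a limit of 0.1, and with the rule and this limit applied in a single Q74 line it was 117 in Q74 line 4 and 23 in Q74 line 6. The rise of these 8 members from day 0 had medians of 0.40 at day 1 and 0.26 at day 5 in Q74 line 4, and of 0.42 and 0.23 in Q74 line 6. The lasting rise was small and near the limit, between 0.21 and 0.40 in Q74 line 4 and between 0.21 and 0.24 in Q74 line 6. A limit of 0.2 was passed in 3 of the 4 differences of single RNA isolations by 6 of the 8 members, in 2 of the 4 by the other 2, and in all 4 by 0. Of these 8 members, 1 had a higher level at day 5 than at day 1 in Q74 line 4, with 0.40 against 0.29 above day 0, and nearly the same level on both days in Q74 line 6, with 0.23 against 0.26.

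The brightest member, with a mean level of 7.53, was among the 8. Its level was 7.51, 7.89 and 7.85 on days 0, 1 and 5 in Q74 line 4 and 7.85, 8.09 and 8.08 in Q74 line 6. It was 7.57, 7.40 and 7.70 in Q23 line 1 and 7.75, 7.70 and 7.64 in Q23 line 5. In PC12 cells it was 6.56, 6.70 and 6.73. The Q74 lines differed at day 0, where Q74 line 6 already stood as high as Q74 line 4 did at day 5, and all 4 lines with a construct stood above PC12 cells.

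A second group returned. In 12 members (12.4%) the level at day 5 was less than 0.1 above day 0, or below it, in both Q74 lines, where 71.3% of all probes met this limit. These shares too rest on the day 0 arrays of the rule and are a description. The count was 2 among the 60 probes that met the rule in both RNA isolations of both lines. The median change of the 12 members from day 0 was 0.24 at day 1 and 0.06 at day 5 in Q74 line 4, and 0.29 and 0.06 in Q74 line 6. A value under 0.1 was found in all 4 single-isolation differences for 2 of the 12 members, in 3 of the 4 for 6 members and in 2 of the 4 for 4 members. In 1 of the 12 members the level at day 5 was below day 0 in both Q74 lines, and 0 members were lower by 0.2 or more in both.

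The other 77 members lay between these groups. At day 5, 31 of them were still up by at least 0.2 in Q74 line 4 alone, 5 in Q74 line 6 alone, and 41 were under 0.2 in both. Taken over all members, 39 (40.2%) were up by at least 0.2 at day 5 in Q74 line 4, where 8.64% of all probes were, and 13 (13.4%) in Q74 line 6, where 4.21% of all probes were. The higher count in Q74 line 4 was thus found over all probes as well. Since the rule favours low values on these day 0 arrays, the member shares are set against all probes as a description. The groups are classes cut from a continuous range, and their sizes moved with the limits and the normalization, to 5 that stayed and 19 that returned after quantile normalization and to 13 and 8 after centring on array medians. With the day 0 level of Q74 line 4 taken from its second RNA isolation alone, 93 probes met the rule, 88 of them members, and 5 stayed up and 16 returned.

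**Figure D3:**
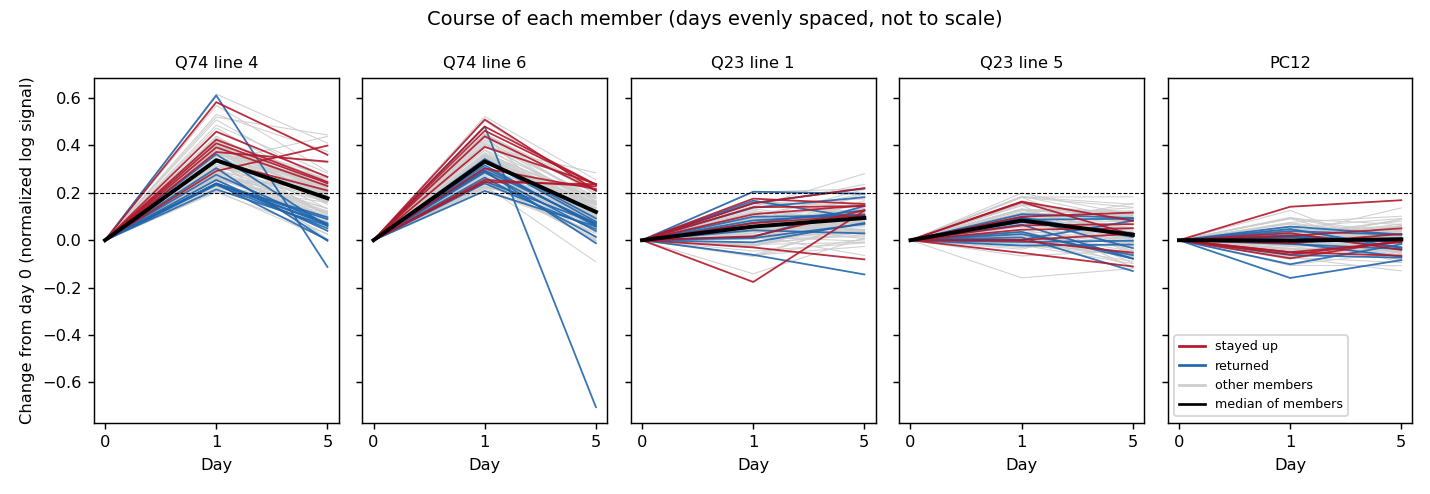
Change from day 0 (normalized log signal) of each of the 97 members at days 1 and 5, in Q74 lines 4 and 6, Q23 lines 1 and 5 and PC12 cells, with the 8 members that stayed up in red, the 12 that returned in blue, the other 77 in grey and the median in black (days evenly spaced). The medians at day 1 and day 5 are 0.34 and 0.18 in Q74 line 4, 0.33 and 0.12 in Q74 line 6, 0.06 and 0.09 in Q23 line 1, 0.08 and 0.02 in Q23 line 5, and -0.0014 and 0.0037 in PC12 cells.

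The Q23 lines took no part in the choice of members. There the members lay mostly above their day 0 level, by less than in the Q74 lines. The rule required the rise in Q74 alone, so a smaller change in Q23 was largely set by the choice. At day 1 the median change was 0.06 (1.06-fold) for Q23 line 1, with a range of -0.18 to 0.20, and 0.08 (1.09-fold) for Q23 line 5, with a range of -0.16 to 0.20. In Q23 line 1, 81 of the 97 members were above day 0, and in Q23 line 5, 82 were. The median of all probes moved by -0.00026 in Q23 line 1 and by -0.0036 in Q23 line 5. In both lines together 71 members (73.2%) were above day 0, where 23.9% of all probes were, and 5 members were below day 0 in both. This share was taken over probes measured on the same arrays, and no test was made of it. It was not set against probes of similar level.

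No single member passed the test in Q23. Limma with the line as a block called 0 members, and 0 of all probes, for the change from day 0 to day 1 in Q23, with adjusted p at 1.0 for every member. At an unadjusted p under 0.05 there were 14 members (14.4%), all 14 up, where 2.86% of all probes passed. The median change of a member in this fit was 0.069 with a median standard error of 0.053, so changes of the size seen in Q23 were not detectable for single probes with 2 lines.

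At day 5 the Q23 lines were less alike. The median change from day 0 was 0.09 in Q23 line 1 and 0.02 in Q23 line 5, and 90 and 61 of the members were above day 0 in these lines. The median of all probes moved by -0.0037 in Q23 line 1 and by 0.0027 in Q23 line 5. In both lines together 56 members (57.7%) were above day 0, where 25.0% of all probes were. Limma called 0 members and 0 of all probes for this change in Q23, with adjusted p at 0.9998 for every member, and 12 members, all 12 up, had an unadjusted p under 0.05, where 3.66% of all probes passed. From day 1 to day 5 the median member moved by 0.03 in Q23 line 1 and by -0.05 in Q23 line 5, so that the decline after day 1 appeared in Q23 line 5 and not in Q23 line 1.

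PC12 cells without a construct received doxycycline as well and their member median stayed near 0 change. The median change of the members was -0.0014 at day 1, with a range of -0.16 to 0.14, and 0.0037 at day 5, with a range of -0.13 to 0.17. At day 1, 19 of the 97 members (19.6%) were above day 0 in both RNA isolations, where 23.3% of all probes were, and 25 were below day 0 in both. At day 5, 32 members (33.0%) were above day 0 in both, where 23.5% of all probes were, and 23 were below day 0 in both. The member median lay between 5.89 and 5.96 on the 6 PC12 arrays. No test was made in PC12 cells, since it is not settled whether the 2 arrays of a day come from separate cultures.

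In the direct comparison of the constructs at day 5, part of the difference remained in direction but 0 members passed. The Q74 minus Q23 difference of the members had a median of 0.077 with a median standard error of 0.057, and ran from -0.22 to 0.29. By means 87 of 97 members were higher in the Q74 lines, where 49.7% of all probes were. Both Q74 lines lay above both Q23 lines for 47 members (48.5%) and below both for 1, where 19.4% of all probes had both Q74 lines above. Limma on all 6 groups of lines called 0 members at an adjusted p under 0.05 (lowest adjusted p = 0.19), where 1.12% of all probes were called. This fit has no term for the line, so the days of a line count as separate samples in its standard errors. With the compared groups alone, limma called 5 of all probes and 0 members. At an unadjusted p under 0.05, 16 members (16.5%) passed, all 16 higher in the Q74 lines, where 11.7% of all probes passed in either direction. With each RNA isolation as a sample 1 member was called. The probes called over the whole array rose as well, from 253 to 1282, so this call does not set the members apart from all probes. The gap between lines of the same construct at day 5 was of similar size to the difference between the constructs. Its median over the members was 0.060 between Q74 lines 4 and 6 and 0.068 between Q23 lines 1 and 5, against 0.077 and 0.062 over all probes.

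When the change from day 0 to day 5 in Q74 was set against that in Q23, limma with the line as a block again called 0 members (lowest adjusted p = 0.068), where 3.04% of all probes were called. The median of this difference was 0.088 with a median standard error of 0.075. An unadjusted p under 0.05 was found for 14 members, 13 of them with the higher change in Q74, where 15.0% of all probes passed in either direction. The smaller Q74 change exceeded the larger Q23 change at day 5 for 52 of the members, against 21.6% of all probes. The contrast shares the day 0 arrays of Q74 with the rule, so it is a description.

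Both RNA isolations went into the averages by which the members were chosen, so their agreement within the members is largely set by the rule and is given as a description. At day 1 the median rise of the members in the first and second RNA isolation was 0.31 and 0.38 in Q74 line 4, and 0.33 and 0.31 in Q74 line 6. The limit of 0.2 was passed in all 4 of these differences by 60 members, in 3 by 30 and in 2 by 7, and 96 of the 97 members were above 0 in all 4. By single difference, 74 and 92 members passed in the first and second isolation of Q74 line 4, and 89 in each isolation of Q74 line 6. Of all probes, 7.63% and 3.07% passed in Q74 line 4, and 2.52% and 2.89% in Q74 line 6. The first isolation of Q74 line 4 thus had the fewest members past the limit, although its share over all probes was the highest of the 4.

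For a single member the isolations differed by a median of 0.11 in Q74 line 4 and of 0.09 in Q74 line 6, up to 0.54 and 0.30. The SD between isolations of a member's day 1 rise was 0.13 in Q74 line 4 and 0.08 in Q74 line 6. Across the members the rises in the 2 isolations were only weakly related, with r of 0.21 in Q74 line 4 and of 0.24 in Q74 line 6, over 97 members whose range was narrowed by a rule on the same values.

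Lists chosen in a single RNA isolation were also read in the other, which had no part in their choice. Of the 105 probes chosen by the first isolation, 60 (57.1%) met the rule again in the second. Of the 118 chosen by the second, 60 (50.8%) met it in the first. Both counts are of the same 60 probes, the members that passed the limit in every Q74 difference above. They are a single overlap of the lists and not separate results. The same reading in the Q23 lines gave 8 probes by the first isolation and 46 by the second, and 0 of either list met the rule in the other isolation. Above day 0 in both Q74 lines, with no limit on size, were 82 of the 105 and 103 of the 118 in the isolation that had not been used. No share over all probes is set beside the counts of 82 and 103. The rule itself was met in the Q74 lines by 105 and 118 of all 22521 probes in the first and second isolation.

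**Figure D4:**
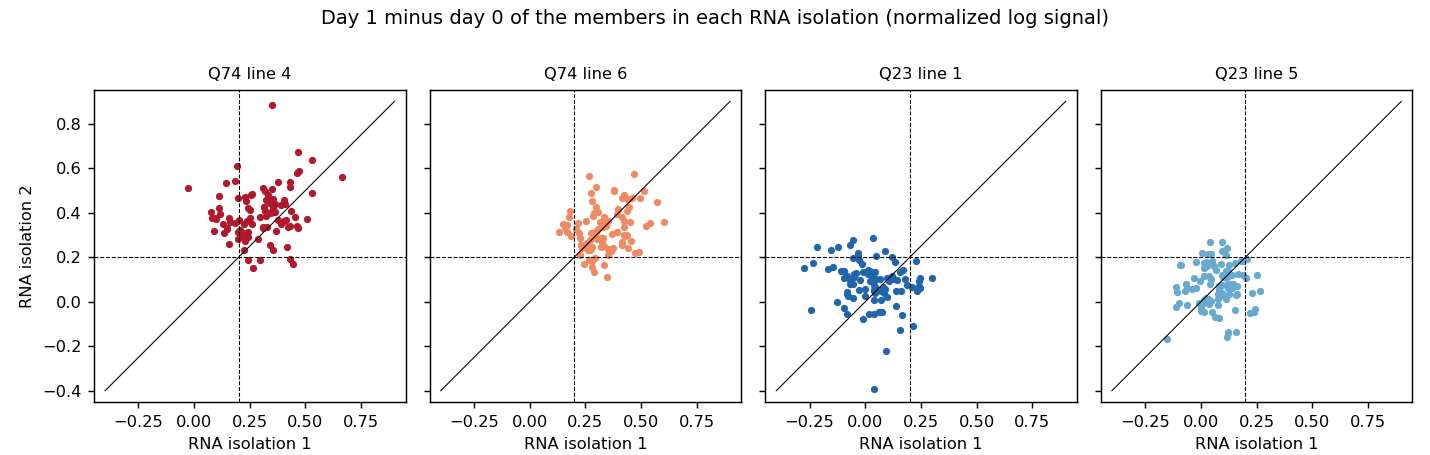
Day 1 minus day 0 of the 97 members in RNA isolation 1 (x axis) and RNA isolation 2 (y axis), in normalized log signal, for Q74 lines 4 and 6 and Q23 lines 1 and 5, with the line of equality and the limit of 0.2 dashed. In the Q74 lines 74 and 92 (line 4) and 89 and 89 (line 6) of the members lie beyond the limit in the first and second isolation. In Q23 line 1, 9 and 11 do, and in Q23 line 5, 8 and 8. Of all probes, 7.63% and 3.07% lie beyond it in Q74 line 4 and 2.52% and 2.89% in Q74 line 6. In Q23 line 1, 9.77% and 5.55% of all probes do, and in Q23 line 5, 2.24% and 2.67%.

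The members also moved together between the RNA isolations, with no day or construct involved. Within a line and day the median member was higher in the second isolation than in the first in 14 of 15 cases, the exception being Q23 line 1 at day 0. The shift was 0.15 in Q74 line 4 at day 1, 0.09 in Q23 line 5 at days 0 and 1, and 0.07 in PC12 cells at day 0, where the median of all probes shifted by at most 0.0093 in size in any of the 15 cases. Nearly all members were brighter than the median probe, and the shift of other probes of similar level was not compared. In PC12 cells, 80 of the 97 members were higher in the second isolation at day 0. The shift varied by line and day. It was 0.04 in Q74 line 4 at day 0, with 56 members higher, and 0.01 in Q23 line 1 at days 1 and 5, with 53 and 55 higher. This shift between isolations, up to 0.15, was of the size of the changes seen in the Q23 lines. It was also of the size of the median changes at day 5 in Q74 lines 4 and 6 (0.18 and 0.12). The part of the shift in the day 1 and day 5 differences was not tested. Within a single isolation, 50 members (first) and 65 members (second) were above day 0 at day 1 in both Q23 lines, where 21.6% and 24.5% of all probes were.

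Probe ILMN_1354393 had the largest rise when the lower of its rises in the Q74 lines is taken. In Q74 line 4 the first and second isolation read 5.64 and 5.78 at day 0, 6.17 and 6.42 at day 1, and 6.01 and 6.14 at day 5. In Q74 line 6 they read 5.60 and 5.75, then 6.17 and 6.20, then 5.83 and 5.93. All 4 day 1 values lay above the other Q74 values. In Q23 line 1 the values were 5.85 and 5.60, 5.79 and 5.88, and 5.83 and 5.92 on days 0, 1 and 5, and in Q23 line 5 they were 5.65 and 5.71, 5.81 and 5.75, and 5.71 and 5.89. The PC12 values lay between 5.77 and 5.86, so that no array outside the Q74 lines exceeded 5.92. The rise at day 1 was 1.79-fold in Q74 line 4 and 1.67-fold in Q74 line 6, against 1.12-fold for Q23 line 1 and 1.10-fold for Q23 line 5. This member and the next were named for their day 1 rise in Q74. Their day 1 contrast with the other lines is a description. ILMN_1354393 stayed up at day 5, by 0.36 and 0.21 in Q74 lines 4 and 6, and its Q74 minus Q23 difference at day 5 was 0.14 (standard error 0.068, adjusted p = 0.48 from limma).

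Probe ILMN_1357995 followed, with rises of 0.49 and 0.50 in Q74 lines 4 and 6. In Q74 line 4 it read 5.94 and 5.99 at day 0, 6.38 and 6.53 at day 1, and 6.21 and 6.29 at day 5, and in Q74 line 6 it read 5.89 and 5.93, 6.40 and 6.43, and 6.08 and 6.13. In Q23 line 1 it read 6.14 and 5.96, 5.98 and 6.19, and 6.09 and 6.17, and in Q23 line 5 it read 5.83 and 6.09, 6.10 and 6.14, and 6.06 and 6.05. The day 1 values of the Q74 lines lay above all of these, and at day 5 those of Q74 line 6 overlapped with the Q23 lines. In PC12 cells the values lay between 5.97 and 6.09. For ILMN_1357995 the Q74 minus Q23 difference at day 5 was 0.083 (standard error 0.060, adjusted p = 0.70 from limma).

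Probe ILMN_1353665 had the lowest mean change at day 5 among the members that returned. In Q74 line 4 it read 5.89 and 4.98 at day 0, 6.56 and 5.54 at day 1, and 5.52 and 5.13 at day 5. In Q74 line 6 it read 5.92 and 5.42 at day 0, 6.52 and 5.77 at day 1, and 5.08 and 4.84 at day 5. In both isolations of both Q74 lines the day 1 value was the highest of the 3 days, although the isolations stood far apart in level. In Q23 line 1 it read 5.98 and 5.47, 5.88 and 5.44, and 5.73 and 5.43, and in Q23 line 5 it read 5.64 and 4.79, 5.55 and 4.96, and 5.21 and 5.07. In PC12 cells the values of ILMN_1353665 lay between 5.29 and 5.58. Against day 0, ILMN_1353665 was 1.84-fold and 1.62-fold higher at day 1 in Q74 lines 4 and 6, and at day 5 it was at 0.893-fold and 0.494-fold. In the Q23 lines the day 5 level was 0.865-fold and 0.925-fold that of day 0. Its Q74 minus Q23 difference at day 5 was -0.22 with a standard error of 0.21, the widest error among the 4 named members (adjusted p = 0.81 from limma).

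Probe ILMN_1360430 was the next of the members that returned, with changes at day 5 of 0.07 and -0.01 in Q74 lines 4 and 6. In Q74 line 4 it read 5.78 and 5.77 at day 0, 5.91 and 6.13 at day 1, and 5.75 and 5.93 at day 5, and in Q74 line 6 it read 5.72 and 5.89, 6.00 and 6.20, and 5.62 and 5.97. In Q23 line 1 it read 5.67 and 5.79, 5.77 and 5.88, and 5.77 and 5.90, and in Q23 line 5 it read 5.78 and 5.78, 5.81 and 5.95, and 5.59 and 5.91. The groups overlapped on every day, since the second isolation of Q23 line 5 at day 1 exceeded the first isolation of Q74 line 4. In PC12 cells the values of ILMN_1360430 lay between 5.88 and 5.94. The Q74 minus Q23 difference of ILMN_1360430 at day 5 was 0.027 (standard error 0.051, adjusted p = 0.92 from limma).

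**Figure D5:**
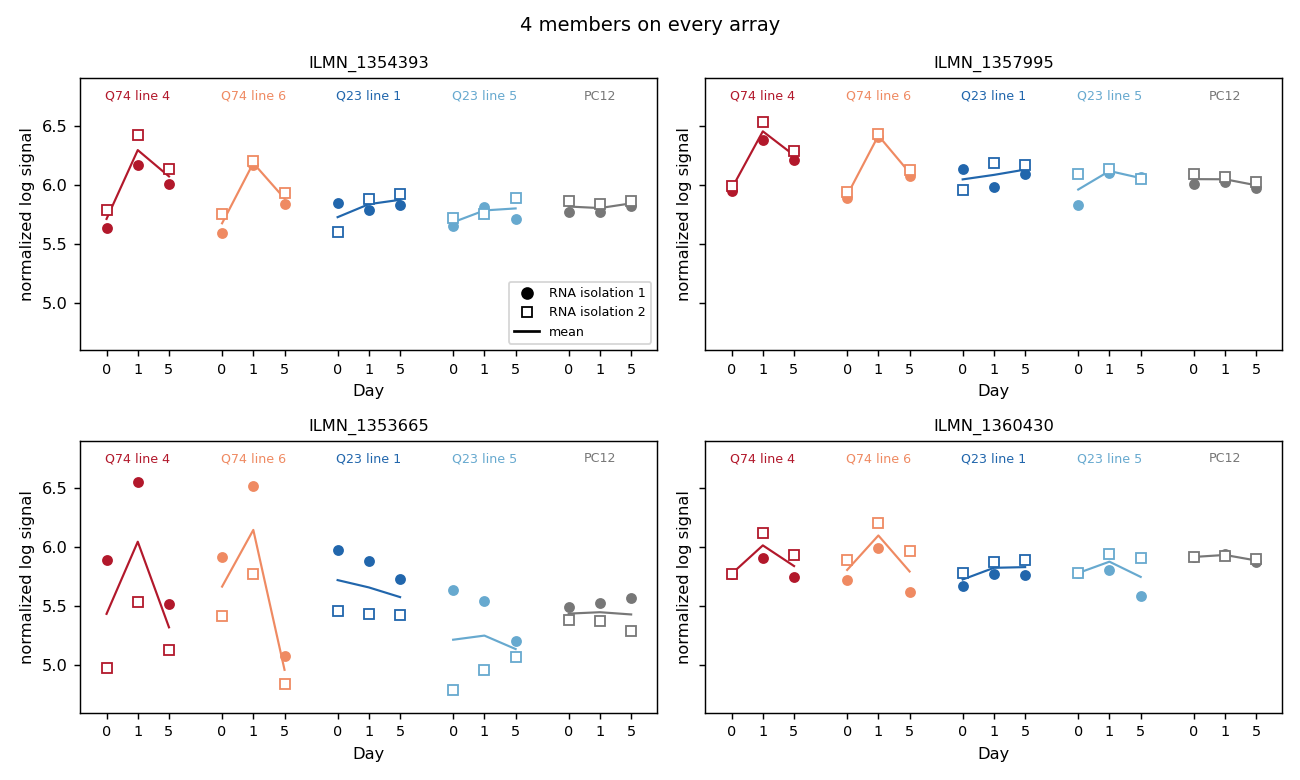
Level (normalized log signal) of 4 members on all 30 arrays by line and day, with filled circles for RNA isolation 1, open squares for RNA isolation 2 and a line through their mean. ILMN_1354393 and ILMN_1357995 have the largest rises in the Q74 lines, and ILMN_1353665 and ILMN_1360430 have the lowest mean change at day 5 among the members that returned. ILMN_1353665 reads higher in the first isolation than in the second for every line and day, PC12 cells included.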

How the data were processed

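The deposited values are signals on a natural log scale. Per the paper's methods, the authors averaged beads per probe in BeadStudio without background correction and normalized with VSN in R. The log base is not given in the sources used here and was inferred from the highest value, 11.1, which is that of a 16-bit signal on the natural log scale (11.1). A fold is the exponential of a difference.

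RNA isolations were averaged, giving 12 values of 4 lines. In R 4.3.3, limma 3.58.1 fitted 6 group means (6 residual degrees of freedom) for Q74 against Q23 at day 5, and day effects with the line as block (4 residual degrees of freedom) for changes from day 0. The fit of group means has no term for the line and takes the days of a line as separate samples. Tests were two-sided, adjusted by Benjamini-Hochberg across the 22521 probes, with a threshold of 0.05. Both fits were tested on simulated data with independent noise and no differences between lines. That setting cannot show how the fit of group means handles lines that differ. PC12 arrays entered neither fit. The limit of the rule was 0.2, and a member returned when under 0.1 above day 0 in both Q74 lines. Figures were drawn with Python 3.11.15 and matplotlib 3.10.9.

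The members, the lists and the limits were chosen with earlier results of these data known. Named members are the 2 with the largest rise, by the lower of the Q74 lines, and the 2 that returned with the lowest mean change at day 5. The gene lists and cell type markers planned were not used, as no table here pairs probes with genes, so the identity of the cells was not checked. Chips and scan dates are not given in the sources used here, and batches were not tested. Alternatives were single RNA isolations, each isolation as a sample, quantile normalization, centring on array medians, no dim probes, other limits, a variance trend, a fit restricted to the groups compared, and omission of each line in turn. The use of a single day 0 isolation in Q74 line 4, and the alternatives for the Q23 directions and for calls within Q74, were added after seeing the data.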

Additional observations from a re-analysis of the deposited data

Results flagged for a closer look

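At day 1, 5 of the 97 members (5.15%) were above day 0 in both Q74 lines and below it in both Q23 lines, where 6.04% of all probes had this pattern. The difference was not tested for these members. By the rule all 97 members rose in both Q74 lines, which probes at large did not. These shares are therefore unlike, and no likeness between members and all probes can be read from them. The brightest member had the widest gap, with changes of 0.37 and 0.25 in Q74 lines 4 and 6 and of -0.18 and -0.05 in Q23 lines 1 and 5. At day 5, 1 member (1.03%) had the pattern, where 6.70% of all probes did, with changes of 0.20 and 0.09 in Q74 lines 4 and 6 and of -0.01 and -0.04 in Q23 lines 1 and 5. This difference was not tested either. The day 5 shares are unlike as well, since the rule used the day 0 arrays of the Q74 lines.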

How the results depend on the processing

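For counts above 0, 30 of 61 values under alternative settings were within 1.5 times the main count and 31 were not. For counts of 0, 52 of 57 were again 0, which says nothing of stability. The 97 members became 43 at a limit of 0.3, 13 at 0.4 and 60 with at least 0.2 in both RNA isolations of both Q74 lines. By the rule in a single Q74 line they were 172 to 316, with 23 to 117 that stayed up and 69 to 106 that returned. The 8 that stayed up became 17 with the first isolation alone, 5 after quantile normalization, 13 after centring, 45 at a limit of 0.1 and 5 with 1 day 0 isolation of Q74 line 4. The 12 that returned became 2 with the rule in both isolations, 19 after quantile normalization and 1 below day 0 in both lines. For Q74 minus Q23 at day 5, the 253 probes called became 140 with the first isolation alone, 5 with the compared groups alone and 1282 with each isolation as a sample. Without a line they were 1 to 1459 and the members called 0 to 2. The lone line is then assumed to vary like the other groups. With each isolation as a sample and its number as replicate block, 1415 probes and 2 members were called, against 1 member without that block. Probes called at day 5 in Q23 were 0 to 7 without a line. The causes were not tested.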
